A study of Mus musculus with 18 samples.

Results

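The oxygen sensors and HIF subunits described here are 10 genes: the prolyl hydroxylases Egln1, Egln2, Egln3 and P4htm, the asparaginyl hydroxylase Hif1an, the alpha subunits Hif1a, Epas1 and Hif3a, their shared partner Arnt, and Vhl. They were taken by symbol from a named list, without regard to their values, from 19938 genes measured on 18 whole-transcript mouse arrays in 6 groups of 3. Each had a single probe set that named it alone. All mice had the C57BL/6 background. Soleus and quadriceps came from mice with a floxed EglN1 gene and a skeletal-muscle Cre recombinase that deletes it (KO) and from mice with the Cre but without the floxed gene (WT). Both received tamoxifen for 3 days before tissue was taken, to switch on the Cre. Hearts came from mice with intact EglN1 that were given vehicle or FG-4497, which inhibits EglN enzymes and was injected into the peritoneum at 50 mg per kg. Age, sex, the time after FG-4497 and the number of its doses are not stated in the labels. The Cre acts in muscle fibres, so endothelial, connective tissue and blood cells of the KO muscles were not its target. In such whole tissue, fewer cells of a type and less RNA per cell cannot be told apart.

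In the presence of oxygen, EglN enzymes hydroxylate prolines in the alpha subunits of hypoxia-inducible factors (HIF). The VHL protein recognises the hydroxylated subunit and directs it to the proteasome. When oxygen or enzyme activity falls, alpha subunits accumulate, join ARNT in the nucleus and raise genes of glycolysis, blood vessel growth and iron handling. This regulation acts mainly on protein, which these arrays did not measure. Some of the sensors are themselves HIF target genes, Egln3 above all and Egln1 as well, so that their RNA forms a negative feedback loop.

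HIF dimers bind DNA at the short core ACGTG or GCGTG. The 250 bases before the start of the EglN genes are shown because Egln3 was the member that rose with EglN inhibition while Egln1 and Egln2, its closest relatives, did not pass the test. Sequences are from RefSeq on GRCm38.p6, written 5′ to 3′ on the gene's strand, which is the minus strand for all of these genes. Capitals mark either core on either strand, so a core on the opposite strand reads CACGT or CACGC.
Egln1, chr8:124949255-124949504: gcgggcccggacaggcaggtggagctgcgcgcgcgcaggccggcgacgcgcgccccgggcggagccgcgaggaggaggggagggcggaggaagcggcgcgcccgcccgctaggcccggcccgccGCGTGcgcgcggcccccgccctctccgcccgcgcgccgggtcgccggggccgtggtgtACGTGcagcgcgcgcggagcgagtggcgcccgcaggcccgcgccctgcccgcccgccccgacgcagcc
Egln2, chr7:27166803-27167052: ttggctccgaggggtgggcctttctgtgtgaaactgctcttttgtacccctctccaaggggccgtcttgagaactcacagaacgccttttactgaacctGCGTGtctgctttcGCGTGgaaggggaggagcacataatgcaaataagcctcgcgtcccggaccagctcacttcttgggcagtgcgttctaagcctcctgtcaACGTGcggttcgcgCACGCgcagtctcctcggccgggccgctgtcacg
Egln3, chr12:54203875-54204124: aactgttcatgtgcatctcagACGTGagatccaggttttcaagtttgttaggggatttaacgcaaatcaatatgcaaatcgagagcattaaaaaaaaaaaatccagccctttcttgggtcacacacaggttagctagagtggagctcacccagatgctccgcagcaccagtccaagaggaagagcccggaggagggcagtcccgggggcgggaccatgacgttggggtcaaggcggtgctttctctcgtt
The Egln1 window held 1 ACGTG, which began 68 bases before the start, and 1 GCGTG at 126 bases, in sequence that was 86% G and C. The Egln2 window held 1 ACGTG at 48 bases and 3 GCGTG at 151, 137 and 34 bases, the last on the opposite strand. A further Egln2 window on the same chromosome, at 27165729 to 27165978, held 1 GCGTG. The Egln3 window held a single ACGTG, 229 bases before the start, in sequence that was 50.8% G and C. Either core was present in 38.6% of 32851 promoter windows of this length, ACGTG in 16.6% and GCGTG in 28.2%, so a match is common. Windows were found for 9 of the 10 members. Hif1a held 3 ACGTG matches, of which 2 overlap on opposite strands, Hif3a held 2 GCGTG and Arnt 1 GCGTG, and the letters of either core were not in the windows of Vhl, P4htm and Hif1an.

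Array medians ran from 6.68 to 6.81 on the log2 scale, and arrays within a group correlated across genes at r from 0.986 to 0.995. All levels below are log2 values, and a difference of 1 is a doubling. The 10 slow fibre markers averaged 13.22 to 13.39 on soleus arrays and 7.62 to 9.42 on quadriceps arrays. The 10 cardiomyocyte markers averaged 12.54 to 12.66 on heart arrays and 7.53 to 7.97 on muscle arrays, while fast fibre markers averaged 6.56 to 6.85 in heart, near the level of 6.61 below which genes were left out of its test. Of the members, 9 passed this filter, and Hif3a, the faintest, lay below it in muscle and heart. Its tests therefore come from a fit without the filter. Calls are at a Benjamini-Hochberg adjusted p under 0.05 from limma over 11963 genes. The labels call the 3 arrays of a group biological replicates, and p-values measure the spread between them; muscle arrays read as coming from 1 mouse were tied by a block.

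Between KO and WT muscle no member passed the test, Egln1 itself included; in heart Egln3 rose with FG-4497, and between tissues most members differed. In soleus KO against WT, 0 of 9 tested members passed, with 0.184% of all genes passing. In quadriceps the count was 0 of 9 against 0.794% of all genes, and for the KO effect averaged over both muscles 0 of 9 against 0.911%. At an unadjusted p under 0.05, limma gave 3, 2 and 3 of the 9, with 7.56%, 12.2% and 12.1% of all genes. In heart, 1 of 9 passed with FG-4497 against 2.23% of all genes, or 1.58% in the upward direction. At an unadjusted p under 0.05 it was 3 of 9 against 11.3%. Between WT soleus and WT quadriceps 6 of 9 passed, where 49.7% of all genes did, so a call was common in that comparison. Groups did not overlap for 2 of the 10 members in soleus KO against WT (12.7% of all genes), 2 in quadriceps (17.1%) and 3 in heart with FG-4497 (15.9%). Between the WT muscles they did not overlap for 7 (56.5%), and between vehicle heart and WT soleus or WT quadriceps for all 10 (65.7% and 70.9%).

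**Figure D1:**
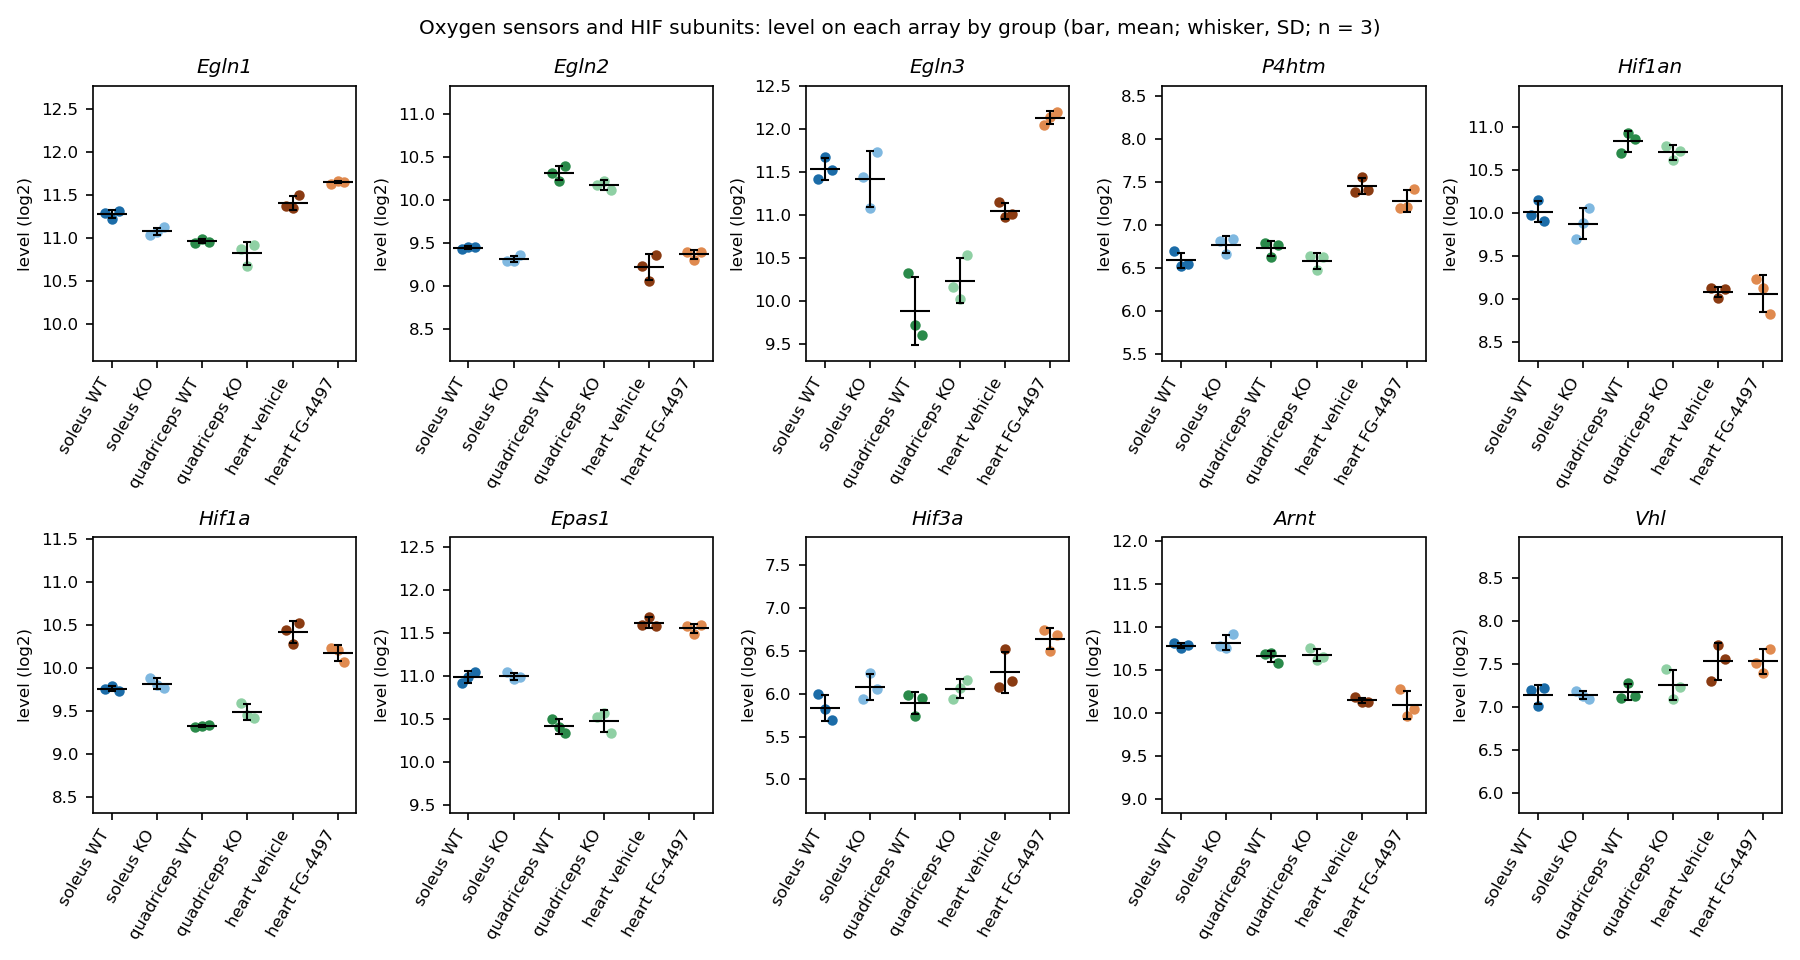
Level of each member (vertical axis, log2) on every array, by group along the horizontal axis. Points are arrays, bars the mean and whiskers the SD of 3 arrays; each panel has its own range of levels. The highest Egln3 values are the 3 FG-4497 hearts at 12.05 to 12.20, and Hif1an runs highest in quadriceps and lowest in heart.

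Egln1, the main prolyl hydroxylase of HIF alpha and the gene targeted in the KO, kept most of its signal in KO muscle. Its level was 11.29, 11.22 and 11.31 in WT soleus and 11.03, 11.07 and 11.12 in KO soleus, so every KO array was below every WT array. In quadriceps the WT arrays read 10.94, 10.99 and 10.95 and the KO arrays 10.87, 10.67 and 10.92, again without overlap but with 1 KO array almost level with the lowest WT array. The difference was -0.20 (SE 0.07, 95% confidence interval -0.34 to -0.06, adjusted p = 0.4) in soleus and -0.14 (adjusted p = 0.435) in quadriceps. Averaged over both muscles it was -0.17 (SE 0.05, adjusted p = 0.162), which also missed the threshold. The sources used here do not say which exons are floxed, and the probe set summarises the transcript as a whole, so this signal need not come from intact transcripts. The vehicle hearts read 11.37, 11.34 and 11.50, and hearts with FG-4497 read 11.63, 11.66 and 11.65. The heart groups did not overlap, and the difference of 0.24 (SE 0.08) had an adjusted p of 0.19. It passed in 2 alternatives, at an adjusted p of 0.0475 when all 18 arrays shared one limma fit and 0.0254 with a trended and robust prior.

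Across tissues the 6 groups of Egln1 arrays did not overlap at all. In falling order they were FG-4497 heart, vehicle heart, WT soleus, KO soleus, WT quadriceps and KO quadriceps, spanning 0.83 or 1.77-fold between the outer group means. WT soleus was above WT quadriceps by 0.31 (1.24-fold, adjusted p = 0.000681). Vehicle heart was above WT quadriceps by 0.45, and its step of 0.13 over WT soleus missed the threshold (adjusted p = 0.0928), passing with array weights at 0.0498 and after repeated quantile normalization at 0.00282.

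Egln2, a prolyl hydroxylase not known as a HIF target itself, was a quadriceps-rich member. WT quadriceps read 10.32, 10.23 and 10.40, and WT soleus 9.43, 9.46 and 9.46. The soleus arrays lay close together and all below quadriceps, a difference of -0.87 (1.82-fold lower, adjusted p = 3.87e-08). Vehicle hearts read 9.24, 9.06 and 9.36, below both muscles. KO arrays read 9.29, 9.30 and 9.36 in soleus, where they did not overlap WT, and 10.18, 10.23 and 10.12 in quadriceps, where 1 KO array was level with the lowest WT array. The KO difference was -0.13 (adjusted p = 0.642) in soleus and -0.14 (adjusted p = 0.362) in quadriceps, neither passing. FG-4497 hearts read 9.40, 9.31 and 9.40 and overlapped vehicle, with a difference of 0.14.

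Egln3, the prolyl hydroxylase with the strongest known feedback by HIF, was the 1 member that rose with FG-4497. Vehicle hearts read 11.15, 10.98 and 11.01, and treated hearts 12.05, 12.14 and 12.20. Every treated array was far above every vehicle array. The rise was 1.08 (SE 0.08, 2.12-fold, 95% confidence interval 1.86 to 2.41-fold, adjusted p = 4.62e-05), and 39 of the genes tested, 0.326%, changed by at least this size. KO soleus read 11.44, 11.08 and 11.73 around WT values of 11.42, 11.67 and 11.52. KO quadriceps read 10.16, 10.02 and 10.53 and WT quadriceps 10.33, 9.72 and 9.60. Both pairs overlapped, with differences of -0.12 (95% confidence interval -0.52 to 0.29, adjusted p = 0.963) in soleus and 0.36 (-0.05 to 0.76, adjusted p = 0.487) in quadriceps. These intervals end below the heart rise. With each quadriceps array left out in turn, the quadriceps difference ranged from 0.23 to 0.57 and never passed. The upper end (limma adjusted p = 0.19) came without WT quadriceps replicate 1, the array with the highest WT value there. That array also had the highest slow fibre marker mean of the WT quadriceps, 8.79 against 7.98 and 7.63. In KO quadriceps, replicates 1, 2 and 3 had slow fibre means of 7.62, 9.42 and 8.27. Replicate 2 there had the lowest Egln3 value, 10.02. A link of Egln3 with the slow fibre means array by array was not tested. With the slow fibre marker mean of each array as a covariate, the quadriceps difference was 0.32 (adjusted p = 0.585).

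Egln3 also had the widest range of any member, 2.25 or 4.76-fold between the FG-4497 heart and WT quadriceps means. WT soleus exceeded WT quadriceps by 1.66 (SE 0.17, 3.15-fold, adjusted p = 4.11e-06), a size reached by 1.54% of genes. Vehicle heart lay between the muscles, 1.17 above WT quadriceps and with a difference of -0.49 from WT soleus (adjusted p = 0.0153). All 10 slow fibre markers were higher in soleus as well. With their mean as a covariate, which itself differs between the muscles (13.35 in WT soleus and 8.13 in WT quadriceps), the Egln3 difference between the WT muscles was 0.96 (SE 0.77, adjusted p = 0.693) and no longer passed. The calls of the other 5 members between the WT muscles ended too. The covariate goes with the muscle almost wholly, so this fit cannot separate the 2 and the loss of calls has little meaning. Egln1 (0.75), Hif1a (0.70) and Egln2 (-0.94) kept differences at least as large as without the covariate, with larger standard errors. Epas1 (0.16, SE 0.28) and Hif1an (-0.14, SE 0.39) had smaller differences, also with larger standard errors.

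P4htm, a prolyl hydroxylase of the endoplasmic reticulum membrane that can act on HIF alpha, was highest in heart. Vehicle hearts read 7.38, 7.56 and 7.41 and treated hearts 7.20, 7.21 and 7.42, overlapping. WT soleus read 6.69, 6.52 and 6.55, KO soleus 6.81, 6.66 and 6.84, WT quadriceps 6.79, 6.63 and 6.76 and KO quadriceps 6.64, 6.47 and 6.63. All muscle arrays were below all heart arrays. Vehicle heart exceeded WT soleus by 0.86 and WT quadriceps by 0.72. The muscle levels, from 6.47 to 6.84, lay near the muscle filter level of 6.54, so differences among them are of faint signal. The KO difference of P4htm was 0.19 in soleus and -0.15 in quadriceps. The difference between these effects was 0.33 and did not pass (limma adjusted p = 0.538). It was the smallest unadjusted p among the members in that comparison, 0.00404 by limma. Of the members, 0 passed there, with 0.00836% of all genes passing, and 1 was at an unadjusted p under 0.05, with 6.55% of all genes.

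Hif1an encodes FIH, which hydroxylates an asparagine of HIF alpha and so blocks its binding to the coactivators EP300 and CREBBP. Its 3 tissue levels stood apart. WT quadriceps read 10.70, 10.93 and 10.86, WT soleus 9.98, 10.15 and 9.91, and vehicle hearts 9.12, 9.01 and 9.11. The tissues did not overlap, and the steps were -0.82 from quadriceps to soleus (1.76-fold lower, adjusted p = 9.17e-06), -0.93 from soleus to heart, and -1.75 from quadriceps to heart (3.36-fold lower). KO soleus (9.69, 9.88 and 10.05), KO quadriceps (10.78, 10.61 and 10.72) and FG-4497 hearts (9.23, 9.13 and 8.82) each overlapped their controls.

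Hif1a, the alpha subunit found in nearly all cells, ran the opposite way. WT quadriceps read 9.31, 9.33 and 9.34, WT soleus 9.76, 9.79 and 9.74, and vehicle hearts 10.44, 10.28 and 10.53, with no overlap between tissues. Soleus was 0.44 above quadriceps (1.35-fold, adjusted p = 1.17e-05), and vehicle heart was 0.65 above soleus and 1.09 above quadriceps. In KO quadriceps it read 9.59, 9.45 and 9.42, above all WT arrays, but the difference of 0.16 did not pass (adjusted p = 0.248). In KO soleus it read 9.89, 9.80 and 9.77 and overlapped WT. FG-4497 hearts read 10.24, 10.21 and 10.07, below all vehicle arrays, and the difference of -0.25 (SE 0.09, adjusted p = 0.28) did not pass.

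Epas1 encodes HIF2α, the alpha subunit known for high expression in endothelium. Its order was that of Hif1a. WT quadriceps read 10.50, 10.41 and 10.33, WT soleus 10.92, 10.99 and 11.05, and vehicle hearts 11.59, 11.69 and 11.58, again without overlap. Soleus exceeded quadriceps by 0.57 (1.49-fold, adjusted p = 9.92e-06), and vehicle heart exceeded soleus by 0.64 and quadriceps by 1.21. Endothelial markers followed the same order. Their mean over 12 genes was 8.63 to 8.73 in WT quadriceps, 9.17 to 9.39 in WT soleus and 10.12 to 10.16 in vehicle heart. Of the 12, 11 were called higher in WT soleus than in WT quadriceps, where 49.7% of all genes passed in either direction. All 12 were called higher in vehicle heart than in WT soleus and than in WT quadriceps, with 30.3% and 32.7% of all genes. Their part in the Epas1 difference was not tested. Epas1 was nearly level with its controls in KO soleus (11.04, 10.96 and 10.99, difference 0.01), KO quadriceps (10.52, 10.57 and 10.33, difference 0.06) and FG-4497 heart (11.58, 11.49 and 11.59, difference -0.07). In those treated hearts the endothelial mean was 10.26 to 10.37, above every vehicle heart. Of the 12 markers 3 were called higher, with 1.58% of all genes.

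Hif3a, an alpha subunit with splice forms that oppose the other HIFs, was faint in every group. WT soleus read 5.99, 5.82 and 5.69, KO soleus 5.94, 6.24 and 6.05, WT quadriceps 5.98, 5.74 and 5.95, and KO quadriceps 5.94, 6.07 and 6.16. Vehicle hearts read 6.08, 6.52 and 6.14 and FG-4497 hearts 6.74, 6.50 and 6.68. The treated hearts were the highest group, although 1 treated array fell just below the highest vehicle array. Without the filter, the difference was 0.40 in heart (SE 0.13, adjusted p = 0.341), 0.24 in soleus KO (adjusted p = 0.686) and 0.17 in quadriceps KO (adjusted p = 0.659), none of which passed.

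**Figure D2:**
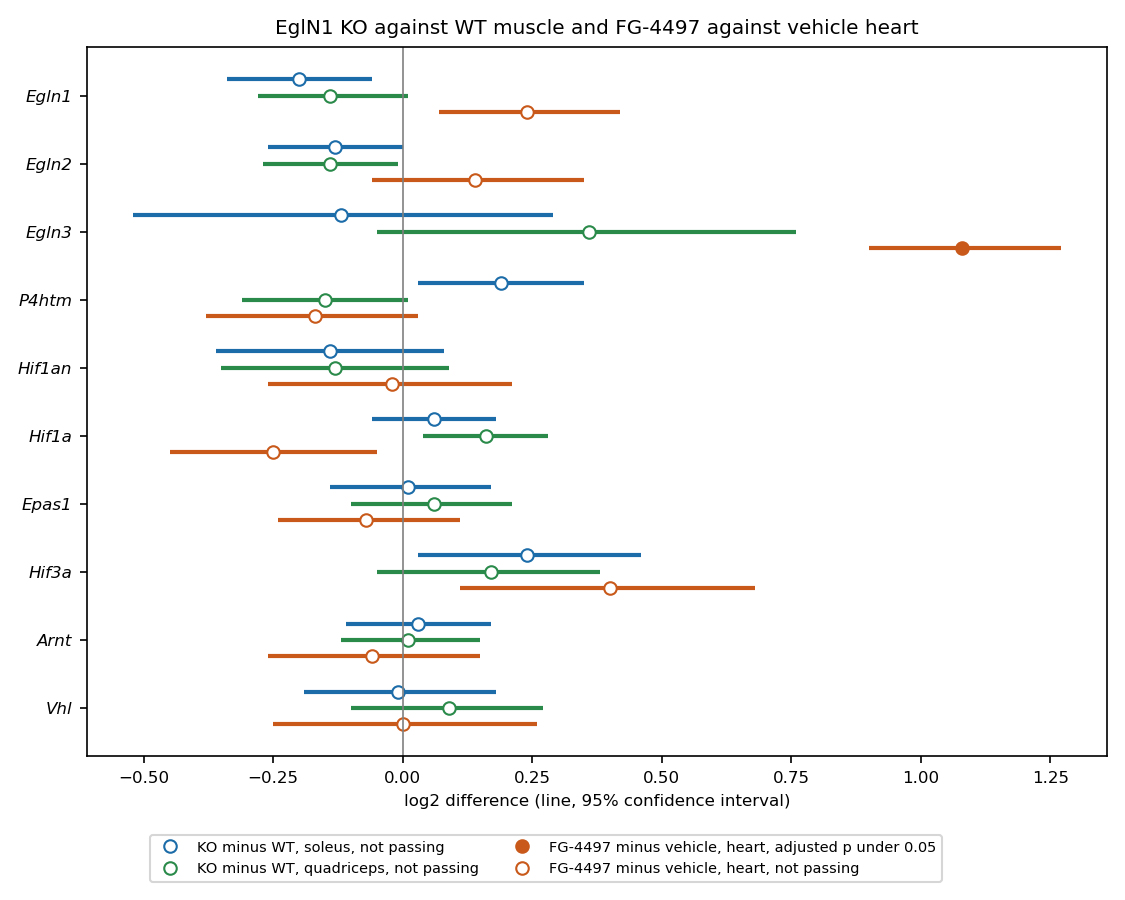
Difference of each member on the log2 scale (horizontal axis) for KO minus WT in soleus and quadriceps and for FG-4497 minus vehicle in heart; lines are 95% confidence intervals from limma and filled points passed the adjusted threshold. Egln3 in heart, at 1.08, is the filled point; Hif3a comes from the fit without the filter.

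Arnt, the partner that all alpha subunits need to bind DNA, was a muscle-rich member. It read 10.81, 10.75 and 10.79 in WT soleus, 10.69, 10.70 and 10.58 in WT quadriceps, and 10.18, 10.13 and 10.13 in vehicle heart. Heart lay below both muscles, with a difference of -0.64 from soleus and -0.51 from quadriceps. The step of 0.13 between the muscles did not pass (adjusted p = 0.0784), although it did with array weights at 0.0242 and after repeated quantile normalization at 0.0238. KO soleus read 10.78, 10.75 and 10.92 and KO quadriceps 10.75, 10.62 and 10.65, and FG-4497 hearts read 10.28, 9.96 and 10.04. All 3 overlapped their controls, with differences of 0.03, 0.01 and -0.06.

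Vhl, the substrate receptor of the ubiquitin ligase that takes up hydroxylated HIF alpha, varied least, with 0.39 between its outer group means. WT soleus read 7.20, 7.02 and 7.22, WT quadriceps 7.11, 7.28 and 7.13, and vehicle hearts 7.31, 7.73 and 7.56. Heart exceeded soleus by 0.39 and quadriceps by 0.36, while the muscles differed by -0.03 (adjusted p = 0.799). KO soleus read 7.19, 7.13 and 7.10, KO quadriceps 7.44, 7.10 and 7.24, and FG-4497 hearts 7.52, 7.40 and 7.68. Each overlapped its control, with differences of -0.01, 0.09 and 0.00.

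Set side by side, the tissues split the members into those higher in heart than in both muscles (P4htm, Hif1a, Epas1 and Vhl) and those lower in heart than in both (Egln2, Hif1an and Arnt). Egln3 was intermediate, and Egln1 passed only against quadriceps. Hif3a was higher in heart than in soleus by 0.41 (adjusted p = 0.00764) and than in quadriceps by 0.35 (adjusted p = 0.0174) in the fit without the filter. Against soleus 8 of 9 members passed, 4 higher and 4 lower, where 60.1% of all genes passed, 30.3% higher and 29.8% lower. Against quadriceps 9 of 9 passed, 6 higher and 3 lower, where 66.9% did, 32.7% higher and 34.2% lower. Heart and muscle came from separate experiments, so tissue, experiment and tamoxifen cannot be told apart, and the Egln2 step between heart and soleus of -0.23 (adjusted p = 0.0115) did not pass without vehicle heart replicate 2 (-0.15, adjusted p = 0.0826).

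**Figure D3:**
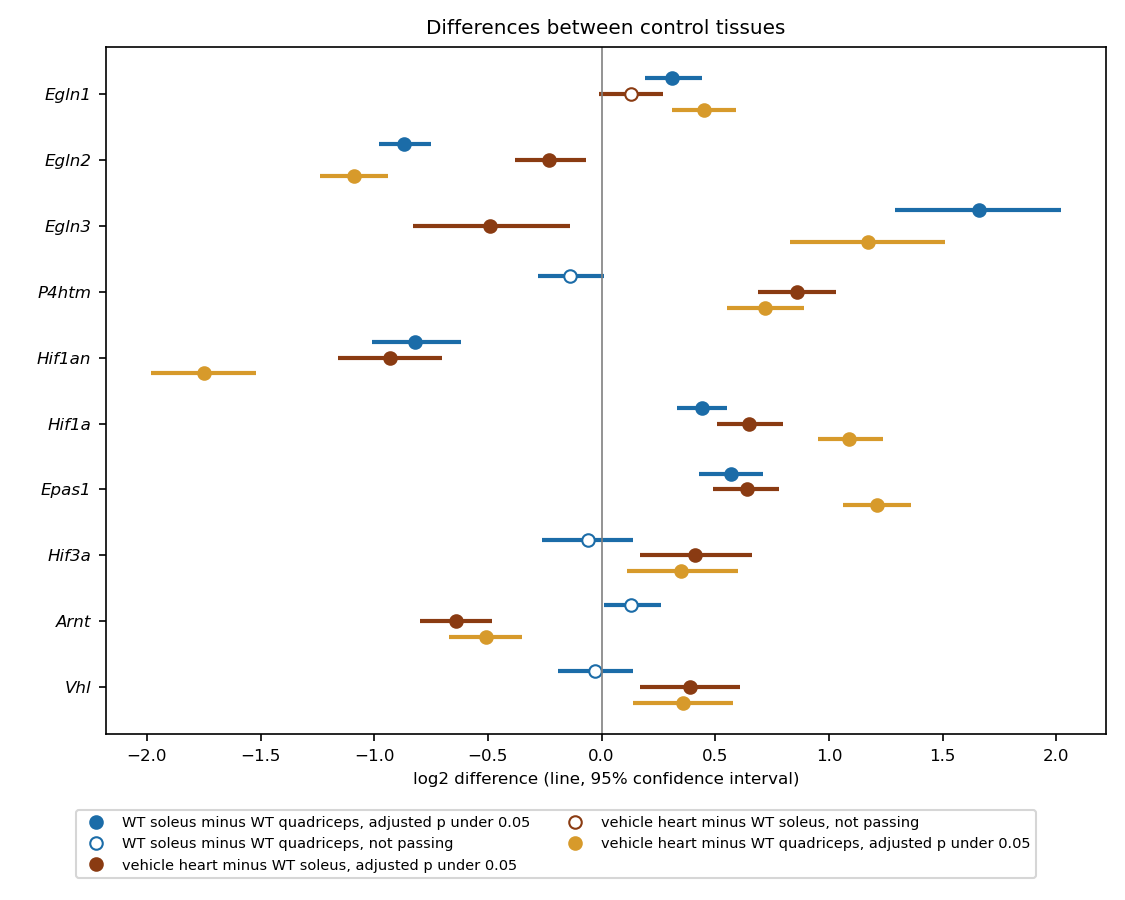
Difference of each member between control tissues on the log2 scale (horizontal axis): WT soleus minus WT quadriceps, vehicle heart minus WT soleus and vehicle heart minus WT quadriceps, with 95% confidence intervals from limma. Filled points passed the adjusted threshold; Hif1an lies farthest to the left at -1.75 and Egln3 farthest to the right at 1.66.

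The effect of FG-4497 in heart was then set against the KO effect averaged over the muscles, in one limma fit of all 18 arrays. Of 9 members, 3 differed, where 2.99% of all genes did. Egln1 differed by 0.41 (SE 0.08, adjusted p = 0.00816), Egln3 by 0.96 (SE 0.21, adjusted p = 0.0123) and Hif1a by -0.36 (SE 0.09, adjusted p = 0.0318). For Egln1 and Hif1a the difference joined effects of opposite sign that had each missed the threshold. Egln1 is itself the gene deleted in the KO, so its KO effect is not a response that can be likened to that in heart. The Egln2 difference of 0.28 did not pass (adjusted p = 0.125). The Hif1a call was lost in 9 of the alternatives, without the filter (adjusted p = 0.0688) and without each of 8 arrays in turn (0.0514 to 0.101): FG-4497 heart replicate 3, vehicle heart replicates 1 and 3, KO quadriceps replicate 1, WT quadriceps replicate 1, KO soleus replicate 1 and WT soleus replicates 1 and 3. Tissue, intervention and experiment differ together here and cannot be told apart.

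Among known HIF target genes, most rose with FG-4497 in heart and 1 rose in KO muscle. Of 34 tested targets, 19 rose and 1 fell in treated hearts, where 1.58% of all genes were called higher. The median difference was 0.521 against -0.000542 over all genes. Egln1 and Egln3 are in this list. The largest rises were of Adm, the vasodilator peptide adrenomedullin (3.25, 9.5-fold, adjusted p = 7.22e-09), Ero1a, an oxidase of the endoplasmic reticulum (1.66), Pfkfb3, a regulator of glycolysis (1.50), and Slc2a1, the glucose transporter GLUT1 (1.39). The gene that fell was Edn1, the vasoconstrictor endothelin 1 (-0.63, adjusted p = 0.00857), which was chosen after its value was seen. In KO muscle, Stc2, a secreted glycoprotein of calcium and phosphate handling, was the called target. It differed by 0.78 in quadriceps (limma adjusted p = 0.0213) and 0.51 on average (adjusted p = 0.0329). This was 1 of 34 in each, where 0.794% and 0.911% of all genes passed. The largest difference among targets in KO quadriceps was that of Pfkfb3, -1.14, with every KO array below every WT array. It did not pass (limma adjusted p = 0.123). In soleus, 0 of 34 passed the limma test, where 0.184% of all genes did. Some markers of other cells were called in these hearts too. Of the tested cardiomyocyte, macrophage and leukocyte, smooth muscle and pericyte, adipocyte and nerve markers, 0 were called. Of the 6 erythroid markers listed 2 were measured, averaging 8.49 to 8.90 in treated and 7.85 to 8.18 in vehicle hearts. Alas2, the erythroid enzyme of heme synthesis, rose (0.96, limma adjusted p = 0.00557), and the other erythroid marker was not called. Fibroblast markers averaged 9.33 to 9.36 in treated and 9.47 to 9.51 in vehicle hearts, with 1 of 7 called, lower. The endothelial means are given above. The part of these cells in the target gene values was not tested.

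**Figure D4:**
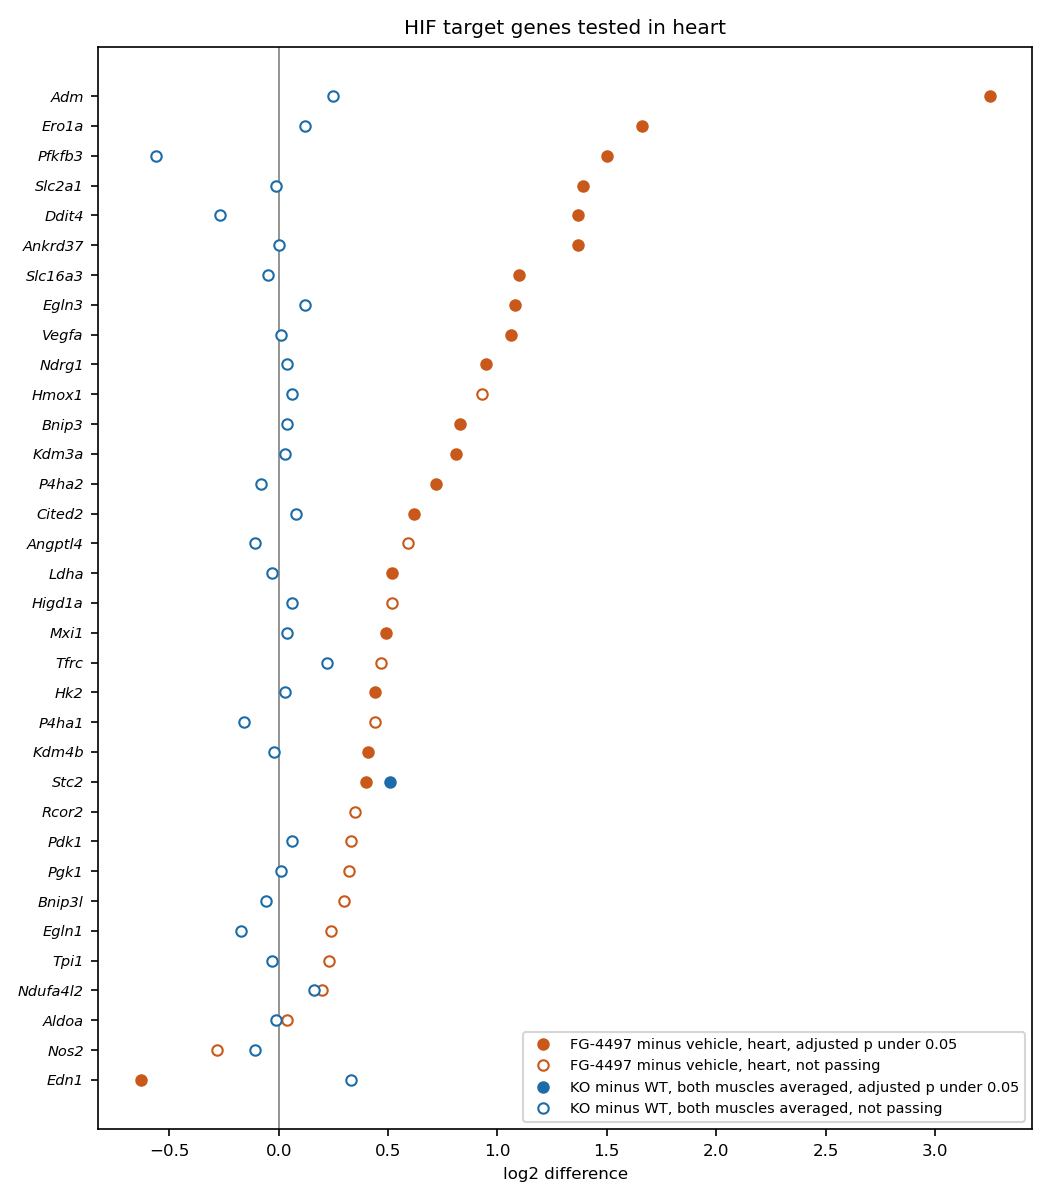
Difference of each HIF target gene tested in heart on the log2 scale (horizontal axis), for FG-4497 minus vehicle in heart and for KO minus WT averaged over both muscles; filled points passed the adjusted threshold. For heart, 19 of the 34 genes have a filled point to the right of 0 and Edn1 has one to the left; in muscle Stc2 is the filled point.

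Genes that work beside the members were mostly without a call after either intervention, as were most genes. Of all genes, 0.184% passed in soleus KO, 0.794% in quadriceps KO, 0.911% on average and 2.23% in heart. At such shares, a short list without a call says nothing particular of that list. Of 11 components of the VHL ubiquitin ligase and its regulators, Vhl included, 0 passed in KO muscle or in heart. Of 12 coactivators and regulators of HIF transactivation, Cited2, a HIF-induced competitor for EP300 binding, rose in treated hearts (0.62, adjusted p = 0.0385). Of 17 regulators of EglN and HIF alpha stability, Siah2, a ubiquitin ligase that can target EglN enzymes, rose there (0.42, adjusted p = 0.0127). Of 8 tested ARNT partners and related factors, Hif1a and Epas1 among them, Arntl, the clock factor BMAL1, fell in KO quadriceps (-0.95, adjusted p = 0.0374) and on average over the muscles (-0.87, adjusted p = 0.01).

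Other enzymes that use 2-oxoglutarate and oxygen did move in heart, where 6 of 27 rose and 0 fell, with 1.58% of all genes called higher. They were led by Plod2, a lysyl hydroxylase of collagen (1.32), Kdm3a, a histone demethylase (0.81), P4ha2, a collagen prolyl hydroxylase (0.72), and Jmjd6 (0.55). Some of them, Kdm3a and P4ha2 included, are also in the HIF target list, so this count and that of the targets share genes. In KO soleus, in KO quadriceps and on average, 0 of 27 passed the limma test, where 0.184%, 0.794% and 0.911% of all genes did. Between the WT muscles 49.7% of all genes passed, so calls were common, and the list counts were not tested against that share. The share of all genes passing in each direction is not given for this comparison. Of the 34 HIF targets 12 were higher and 13 lower in soleus, and of the 17 stability regulators 5 were higher and 7 lower. Of the 12 coactivators 7 passed, all lower in soleus, among them Ep300 (-0.38) and Crebbp (-0.32), the partners whose binding FIH blocks. Of the 11 VHL ligase components 6 passed, 5 lower and 1 higher in soleus, with Ube2d1, a ubiquitin-conjugating enzyme, at -1.09 and Elob, which joins VHL to its cullin, at -0.50. Among ARNT partners 5 of 8 were higher in soleus, Hif1a and Epas1 included, led by the developmental factors Sim1 (2.12) and Sim2 (1.75). Sim1 averaged 8.35 in WT soleus and 6.23 in WT quadriceps, where it lay below the muscle filter level of 6.54. The size of the Sim1 difference therefore rests on faint signal in quadriceps.

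Genes whose levels followed each member over the 18 arrays were ranked by Pearson's r among 11440 named genes. Since the 18 arrays fall into 6 groups of 3 and 3 tissues, a high r mostly records the same order of tissues. The genes nearest Egln1 were Ppp1r13b (0.957), Bcl2l11 (0.951) and Itpkb (0.949), and those nearest Egln2 were Reep1, Dennd1b and Msrb3 (0.985, 0.985 and 0.983). Egln3 had few like it, with 12 genes at 0.9 or above, led by Pdlim5 (0.925), Gabarapl1 (0.924) and Ndufa4 (0.913). For Hif1an 1059 genes reached 0.9, led by Qser1 (0.994), Kpna1 (0.993) and Eif2s2 (0.993), and for Epas1 925 did, led by Etfb, B4galt6 and Atf6 (0.989 each). Hif1a was nearest to Rfwd3 (0.979), Cavin2 (0.978) and Idnk (0.976), Arnt to Hsf2 (0.982), Cwf19l2 (0.981) and Tcap (0.98), and P4htm to Lmf2 (0.97), Polr2l (0.965) and Ehd1 (0.963). Hif3a had 2 such genes, Trpv4 (0.928) and Igsf6 (0.915), and Vhl 0.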

How the data were processed

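RNA was measured on 18 Affymetrix arrays. The authors' deposited values are on the log2 scale, made with RMA per the submitters' processing notes. Neither its version nor which arrays were normalized as one set is given in the sources used here. RMA with quantile normalization can shrink shifts shared by many genes. Of 35556 probe sets, 21789 named 1 gene, 1621 several and 12146 none; symbols of 21698 were taken by gene identifier from a GRCm38.p6 table, and the brightest probe set stood for each gene. The filter left out genes whose mean lay under the 40th percentile (6.54 muscle, 6.61 heart, 6.58 over 18 arrays), leaving 11963 in each fit.

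Tests used limma 3.58.1 in R 4.3.3 with Benjamini-Hochberg adjustment over all genes tested. The 12 muscle arrays shared a fit, with animal as a random block (consensus correlation 0.18); the 6 heart arrays had their own; comparisons of heart with muscle used all 18 (0.21). Animal numbers were read from the labels, which do not say what the numbers mean; deviations of the 6 pairs correlated at r from -0.002 to 0.384, with 4 over 0.1. With 3 against 3 arrays an exact permutation test cannot go below p = 0.1. Precision is limited by the number of arrays. The script was tested on simulated data.

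Members, lists and tests were chosen with earlier results of these data known. All members were named in each comparison, up to 4 called genes with the largest change per list, and the 3 genes most like each member where r was at least 0.9. The 16 lists hold 207 genes, 192 measured. Alternatives covered filter, normalization, variance prior, array weights, probe sets, blocks, fibre content and left-out arrays; leave-one-out fits kept the correlation of the full fit.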

Additional observations from a re-analysis of the deposited data

Results flagged for a closer look

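For 3 members the effect of FG-4497 in heart differed from the averaged KO effect in muscle by the test of that difference. The differences were 0.41 for Egln1, 0.96 for Egln3 and -0.36 for Hif1a on the log2 scale, with limma adjusted p of 0.00816, 0.0123 and 0.0318. Over its alternatives the difference ranged from 0.38 to 0.46 for Egln1 and from 0.86 to 1.03 for Egln3, and both passed in each. Because the KO deletes Egln1 itself, a positive Egln1 difference is partly built into the design. Tissue, intervention and experiment differ together in this comparison and cannot be told apart.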

How the results depend on the processing

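Across 28 or fewer alternatives per member and comparison, 1573 values kept their direction and their side of the threshold, 41 changed sign, 16 lost a call and 8 gained one. The 40th percentile over all probe sets was chosen as a filter after seeing the data. The count of called members in heart rose from 1 to 2, adding Egln1, with 18 arrays in one fit and with a trended and robust prior. With the slow fibre marker mean as a covariate, 0 of 9 members passed between WT soleus and WT quadriceps, and calls over all genes went from 5951 to 50. That mean goes with the muscle, so the fit cannot separate the 2. The members' values, given above, grew for some and shrank for others, with larger standard errors. P4htm passed there after repeated quantile normalization (adjusted p = 0.0319), and the Egln2 difference between the heart and averaged KO effects passed without vehicle heart replicate 3 (0.0491). Repeating the quantile normalization moved the median of all genes by at most 0.02 in any comparison. That median does not speak for single genes. The Egln1 difference between vehicle heart and WT soleus went from 0.13 to 0.23 with it. Differences between heart and muscle thus depend in part on the normalization.

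Sign changes were of values that had not passed, and the cause was not tested. These values were small, except for Vhl between the WT muscles with the slow fibre covariate (SE 0.31). In the KO effect of soleus minus quadriceps, Arnt was -0.06 with array weights and -0.01 after repeated quantile normalization, and Egln2 was -0.04 after the latter. For WT soleus minus quadriceps, Vhl was 0.01 with array weights and 0.62 with the slow fibre covariate. With each array left out in turn, the KO effect of soleus minus quadriceps ranged from -0.04 to 0.05 for Arnt and for Egln2, from -0.12 to 0.00 for Epas1 and from -0.10 to 0.08 for Hif1an. The averaged KO effect ranged from -0.01 to 0.04 for Arnt, 0.00 to 0.05 for P4htm and 0.00 to 0.08 for Vhl. The heart effect minus the averaged KO effect ranged from -0.15 to 0.06 for Vhl. In heart the ranges were -0.15 to 0.01 for Arnt, -0.11 to 0.09 for Hif1an and -0.11 to 0.10 for Vhl. In quadriceps KO Arnt ranged from -0.03 to 0.04. In soleus KO the ranges were -0.03 to 0.06 for Arnt, -0.25 to 0.03 for Egln3, -0.02 to 0.04 for Epas1 and -0.06 to 0.03 for Vhl, and in WT soleus minus quadriceps -0.06 to 0.03 for Vhl.

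Counts over all genes ranged from 6 to 67 in soleus KO (22), 26 to 226 in quadriceps KO (95), 63 to 258 on average (109), 0 to 3 for their difference (1), 147 to 442 in heart (267) and 284 to 433 for heart against KO (358). With the title number as a replicate block, called members stayed at 0 in each KO comparison, 6 between WT muscles, 1 in heart, 8 and 9 between heart and muscle and 3 for heart against KO. Leaving out the animal block changed none of these counts. Arrays with the same title number were compared between KO and WT of each muscle and between treated and vehicle hearts. Deviations of those pairs correlated at r from -0.308 to 0.164. Among KO arrays, soleus and quadriceps arrays with the same title number had the same animal number. Arrays have no depth; Hif3a, below the filter, is the member whose signal limits its values most.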
